A study of Mus musculus with 9 samples.

Results

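Expression of 10 genes of nicotinamide adenine dinucleotide (NAD) synthesis and use was examined in E18.5 mouse hearts of 3 Ctcf genotypes. The genes were taken from the table of 24571 usable symbols by name: the kinases Nmrk1 and Nmrk2, the salvage enzyme Nampt, the NMN-adenylylating enzymes Nmnat1 and Nmnat3, the NAD kinase Nadk, the transhydrogenase Nnt, the deacetylases Sirt1 and Sirt3, and the NAD glycohydrolase Cd38. Nmrk2 had been chosen because it was low in homozygous hearts, so its values in homozygous hearts are given as a description, without a test. All 10 had a mean over all libraries of 1 TPM or more, the filter used here, as did 13682 genes in all.

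The hearts came from C57BL/6N embryos that were wild type, heterozygous (Ctcf +/R567W) or homozygous (Ctcf R567W/R567W) for an arginine-to-tryptophan substitution in the zinc-finger protein CTCF, which organises chromatin loops. The substitution had been introduced into mice with CRISPR/Cas9, and the study names no tissue-specific driver. Each genotype had 3 libraries of whole heart, and the comparison asked which transcripts differed with the dose of the mutant allele. The labels do not say whether the libraries came from different litters, so p-values measure the spread between these libraries.

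NAD carries electrons between metabolic enzymes, and it is also consumed as a substrate by sirtuins, by poly(ADP-ribose) polymerases (PARPs) and by CD38. Because these enzymes release nicotinamide, cells rebuild NAD continuously: NAMPT turns nicotinamide into nicotinamide mononucleotide, the NMRK kinases make the same product from nicotinamide riboside, and the NMNAT enzymes join it to an adenylyl group to give NAD. Nmrk1 is expressed widely, whereas Nmrk2 is known as the form enriched in skeletal and cardiac muscle, a tissue with a high demand for NAD in its mitochondria.

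Values are TPM, transcript abundance corrected for transcript length and scaled to a fixed library total, so levels of different genes can be set side by side, but the number of reads behind them is unknown. The summed TPM of 12 cardiomyocyte markers was between 37733 and 51527 per library, and none of them was below 1 TPM everywhere. Markers of other organs stood out in 3 libraries. In heterozygous replicate 1 the 12 hepatocyte genes summed to 3079 TPM, against at most 81.4 TPM elsewhere. The 11 lung genes summed to 1105 TPM in the same library and to 2616 TPM in wild-type replicate 1, against at most 50.7 TPM elsewhere. In homozygous replicate 3 the 12 thymocyte genes summed to 581.9 TPM, against at most 2.78 TPM elsewhere. Xist, which marks female embryos, was found in wild-type replicate 1, in the 3 heterozygous libraries and in homozygous replicate 1. The Ctcf transcript was at 27.0 to 34.3 TPM in wild-type libraries, at 33.2 to 38.7 TPM in heterozygous libraries and at 38.9 to 50.2 TPM in homozygous libraries, and TPM cannot show the substitution itself.

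Nmrk2 lies at chr10:81198170-81202051 on the minus strand (mm10, GENCODE M21), with 1 annotated transcript. Nmrk1 lies at chr19:18631950-18652428 on the plus strand. The stretches from position -250 to -67 relative to the RefSeq start of both genes (GRCm38.p6, the same build) are shown because the kinases are the members with the lowest and the highest difference between homozygous and wild-type hearts and because the mutated protein is a DNA-binding factor whose known motif contains CCCTC. Capitals mark CCCTC, read on either strand, so that GAGGG is the same motif on the other strand.
Nmrk1 (chr19:18631766-18631949, plus strand): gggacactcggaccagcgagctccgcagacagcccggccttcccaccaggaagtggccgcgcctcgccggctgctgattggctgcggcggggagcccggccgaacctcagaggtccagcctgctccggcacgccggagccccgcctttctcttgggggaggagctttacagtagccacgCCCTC
Nmrk2 (chr10:81202104-81202287, minus strand): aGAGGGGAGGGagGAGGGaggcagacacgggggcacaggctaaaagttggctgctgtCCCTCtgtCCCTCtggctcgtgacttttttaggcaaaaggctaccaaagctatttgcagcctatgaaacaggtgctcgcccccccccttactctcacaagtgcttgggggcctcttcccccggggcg
The Nmrk2 window held 5 copies of CCCTC, 2 in the direction of transcription and 3 on the other strand, and the Nmrk1 window held 1. Of 32851 promoter windows of the same length, 48.4% held at least 1 copy and 0.953% held 5 or more, a count that was looked up after the Nmrk2 window had been seen. The E-box letters CANNTG, which read alike on both strands, occurred in 2 places in the Nmrk2 window and in none of the Nmrk1 window (56.3% of all windows held it), and TATAAA occurred in neither window on either strand (8.52% of all windows held it). G and C made up 59.8% of the Nmrk2 window and 71.2% of the Nmrk1 window, against a median of 51.1%. No binding was measured in these RNA libraries, so the matches describe the letters only. The study drew on published CTCF ChIP-seq of wild-type and homozygous hearts, which was not used here.

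Nmrk2 was measured at 14.25, 13.48 and 16.52 TPM in wild-type libraries, at 10.54, 16.58 and 16.55 TPM in heterozygous libraries and at 4.68, 3.83 and 5.17 TPM in homozygous libraries. All 3 homozygous values lay below every other library, and the lowest value outside this group, in heterozygous replicate 1, was 10.54 TPM. Means per genotype were 14.75 ± 1.58, 14.6 ± 3.48 and 4.56 ± 0.678 TPM (SD, n = 3 each), so the homozygous mean was 0.309 of the wild-type and 0.313 of the heterozygous mean. On the log2(TPM + 1) scale, which understates changes of low genes, these differences were -1.50 and -1.46. Since Nmrk2 was chosen on these values, no test is attached to them. Heterozygous and wild-type hearts overlapped and differed by a log2 of -0.04 (SE 0.19, 95% interval -0.45 to 0.37, limma adjusted p = 0.946). Nmrk2 was not chosen for this difference. A fall is relative to the other genotypes, however, so this test is not independent of the choice.

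The size of the log2 difference of Nmrk2 between homozygous and wild-type hearts depended on the pseudocount and on the scaling. It was -1.05 with a pseudocount of 5, -1.73 after median-ratio scaling and -1.78 after quantile normalization. Without the 3 libraries that carried markers of other organs it was -1.60, and -1.83 with median-ratio scaling as well. In whole hearts, fewer cells that express a gene and less RNA per cell cannot be told apart. The summed TPM of skeletal muscle markers, of which 11 of 12 were in the table, was 86.2, 80.0 and 102 in wild-type, 98.8, 68.4 and 73.7 in heterozygous and 55.4, 34.9 and 40.1 in homozygous hearts. This sum was mostly Casq1, at 61.48, 68.07 and 84.18 TPM in wild-type and at 37.85, 20.63 and 25.34 TPM in homozygous hearts. The rest of the sum overlapped between wild-type and homozygous hearts. Casq1 is itself among the genes picked below for their likeness to Nmrk2. Myog, Myf5, Pax7, Myh3, Ryr1 and Chrna1, 6 of the 11, stayed below 1 TPM in every library. The summed TPM of 6 smooth muscle genes ran from 1546 to 1581 in wild-type, 1200 to 1553 in heterozygous and 878 to 1308 in homozygous hearts. Their part in the result was not tested.

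Nmrk2 shares 270 of its 1854 exon bases (14.6%) with Atcayos, a transcript read from the opposite strand, and the use of strand in counting is not stated, so reads of this stretch could have been given to either gene. Of the 31-base words of Nmrk2, 19.1% also occur in transcripts of other genes when strand is ignored and 5.15% do so on the same strand. Atcayos was at 22.55, 19.03 and 27.69 TPM in wild-type libraries, at 20.99, 20.92 and 26.22 TPM in heterozygous libraries and at 23.43, 32.61 and 23.16 TPM in homozygous libraries. The groups overlapped, with a log2 difference of 0.18 between homozygous and wild-type hearts (SE 0.18, limma adjusted p = 0.508), and the homozygous mean was above the wild-type mean.

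**Figure D1:**
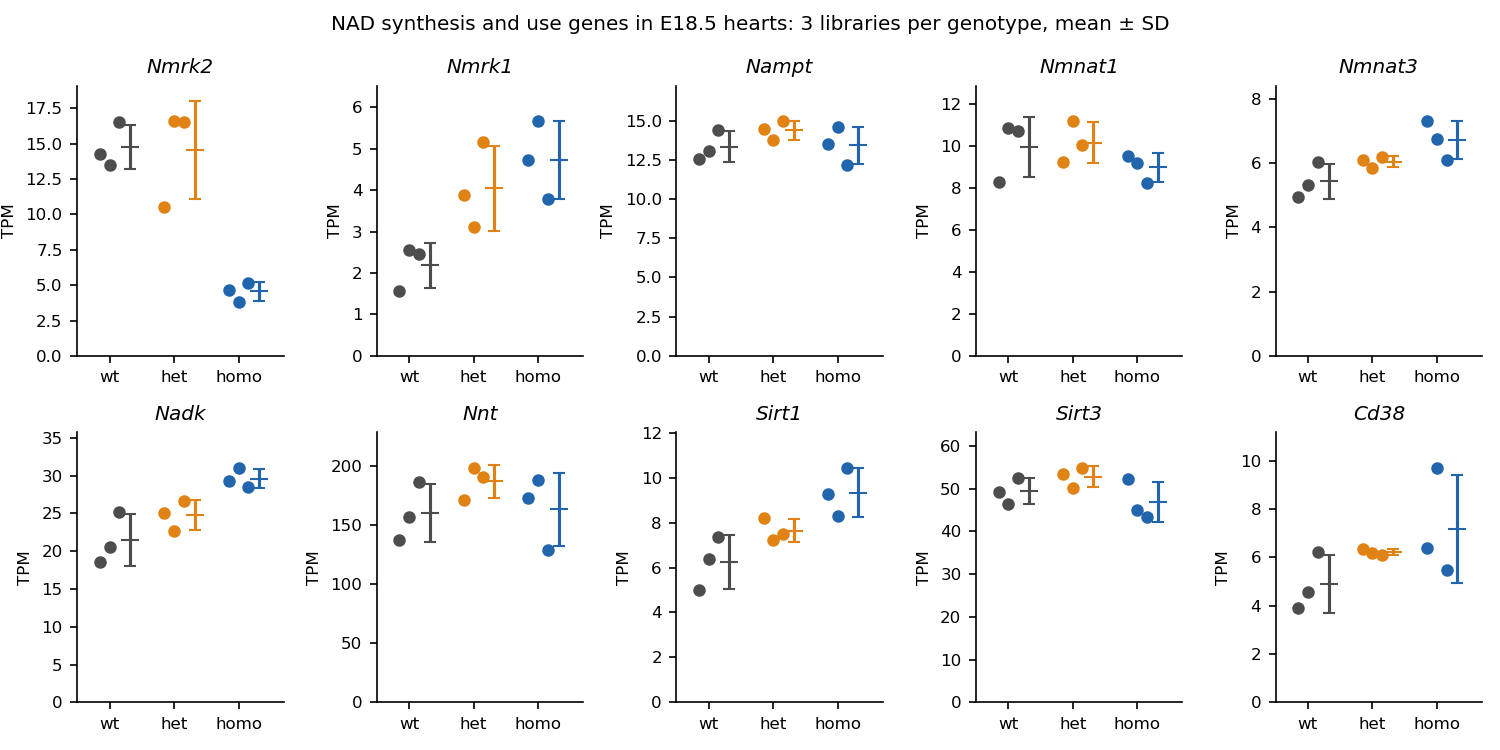
TPM of the 10 NAD genes in each library (points), with group mean and SD (bar, n = 3), for wild-type (wt), heterozygous (het) and homozygous (homo) hearts; each panel has its own axis from 0. The 3 homozygous Nmrk2 values, from 3.83 to 5.17 TPM, sit below all others, while Nmrk1, Nadk, Sirt1 and Nmnat3 have every homozygous value above every wild-type value.

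Nmrk1, the widely expressed kinase that makes the same product as Nmrk2, had a higher mean in homozygous than in wild-type hearts, without passing the test. It was at 1.56, 2.55 and 2.45 TPM in wild-type libraries, at 3.87, 3.12 and 5.15 TPM in heterozygous libraries and at 4.72, 5.66 and 3.79 TPM in homozygous libraries. Every mutant library, heterozygous or homozygous, was above every wild-type library, and the mutant groups overlapped. Means were 2.19 ± 0.545, 4.05 ± 1.03 and 4.72 ± 0.935 TPM (SD, n = 3 each), a ratio of 2.16 between homozygous and wild-type and 1.85 between heterozygous and wild-type hearts. The log2 difference between homozygous and wild-type hearts was 0.85 (SE 0.22, 95% interval 0.36 to 1.33), and it did not pass the threshold of 0.05 after adjustment over all 13682 genes (limma adjusted p = 0.103). That between heterozygous and wild-type hearts was 0.66 (SE 0.22, limma adjusted p = 0.672), with an unadjusted limma p of 0.0129. The homozygous difference was 0.66 after median-ratio scaling and 0.57 after quantile normalization. At this low level it also depended on the pseudocount, with 1.09 at 0.1 and 0.43 at 5. It was not called in any of these settings. Without wild-type replicate 3 the homozygous difference was 0.91 and was called, with a limma adjusted p of 0.0401, among 2170 genes in all.

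With the mean of Nmrk2 lower and that of Nmrk1 higher in homozygous hearts, the makeup of their summed transcripts differed. Nmrk2 made up 90.1%, 84.1% and 87.1% of Nmrk1 plus Nmrk2 TPM in wild-type libraries, 73.1%, 84.2% and 76.3% in heterozygous libraries and 49.8%, 40.4% and 57.7% in homozygous libraries. The homozygous shares lay apart from the rest, while heterozygous and wild-type shares met at 84%. The summed kinase TPM was 16.9 ± 1.76 in wild-type, 18.6 ± 3.77 in heterozygous and 9.28 ± 0.284 in homozygous hearts (SD, n = 3 each). Because Nmrk2 enters both quantities and chose the set, these shares and sums are a description.

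**Figure D2:**
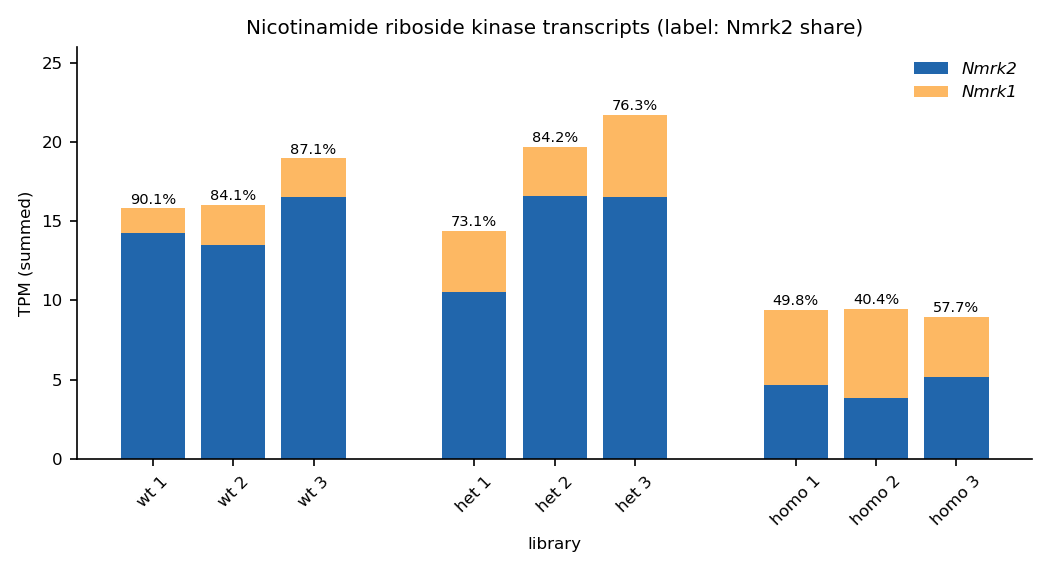
Summed TPM of Nmrk2 (blue) and Nmrk1 (orange) in each of the 9 libraries; the label over each bar is the share of Nmrk2 in the sum. The bars of homozygous hearts end between 8.96 and 9.49 TPM with an Nmrk2 share of 40.4% to 57.7%, against 14.41 to 21.7 TPM and 73.1% to 90.1% in the other libraries.

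Nampt, which catalyses the rate-limiting step of NAD salvage from nicotinamide, showed no detectable difference. It was at 12.53, 13.07 and 14.43 TPM in wild-type libraries, at 14.44, 13.77 and 14.96 TPM in heterozygous libraries and at 13.50, 14.58 and 12.18 TPM in homozygous libraries, and the 3 groups overlapped. The log2 difference between homozygous and wild-type hearts was 0.01 (95% interval -0.26 to 0.27, limma adjusted p = 0.976), and its sign turned after median-ratio scaling (-0.23) and quantile normalization (-0.27). Nampt transcripts stood at 0.790 ± 0.0275 of the summed kinase transcripts in wild-type, 0.797 ± 0.178 in heterozygous and 1.44 ± 0.0887 in homozygous hearts (SD, n = 3 each), a ratio that contains Nmrk2 and is again a description.

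NMNAT enzymes complete NAD, NMNAT1 in the nucleus and NMNAT3 in mitochondria. Nmnat1 was at 8.31, 10.87 and 10.72 TPM in wild-type libraries, at 9.25, 11.19 and 10.07 TPM in heterozygous libraries and at 9.53, 9.21 and 8.23 TPM in homozygous libraries, with overlap throughout (homozygous minus wild type, log2 -0.13, limma adjusted p = 0.568). Of its 31-base words 8.39% also occur in transcripts of other genes. Nmnat3 was at 4.96, 5.31 and 6.04 TPM, 6.11, 5.85 and 6.19 TPM, and 7.31, 6.75 and 6.11 TPM in the same order of genotypes. Its homozygous values were all above the wild-type ones, by a log2 of 0.26 (SE 0.14, 95% interval -0.04 to 0.57, limma adjusted p = 0.247), close to the 0.23 by which the median gene differed, and the difference was 0.05 after median-ratio scaling and -0.04 after quantile normalization.

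NADK phosphorylates NAD to NADP, and the mitochondrial transhydrogenase NNT uses the proton gradient to pass hydride from NADH to NADP. Nadk was at 18.61, 20.57 and 25.26 TPM in wild-type libraries, at 25.07, 22.63 and 26.65 TPM in heterozygous libraries and at 29.25, 31.06 and 28.55 TPM in homozygous libraries. Its homozygous values were above all values of the other genotypes, by a log2 of 0.46 against wild type (SE 0.13, 95% interval 0.16 to 0.75, limma adjusted p = 0.115) and 0.25 against heterozygous hearts (limma adjusted p = 0.753). Neither difference passed the threshold, and the first was 0.21 after median-ratio scaling. Without wild-type replicate 3, the highest of its group, it was 0.57 and was called (limma adjusted p = 0.0238), among 2170 genes in all.

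Nnt was the most abundant of the 10 genes, at 137.28, 156.26 and 186.24 TPM in wild-type libraries, at 171.38, 198.33 and 190.79 TPM in heterozygous libraries and at 172.82, 187.57 and 128.76 TPM in homozygous libraries. Homozygous replicate 3, with the thymocyte markers and the lowest cardiomyocyte sum, had the lowest Nnt level of all libraries. The log2 difference between homozygous and wild-type hearts was 0.02 (95% interval -0.33 to 0.37, limma adjusted p = 0.943). It was -0.23 after median-ratio scaling. The C57BL/6J substrain, from which the reference genome was made, lacks several Nnt exons that C57BL/6N mice have, so reads of those exons had no place to align and the level given here leaves them out in every library.

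The sirtuins remove acyl groups from proteins at the cost of NAD, SIRT1 mainly in the nucleus and SIRT3 in mitochondria. Sirt1 was at 4.98, 6.39 and 7.37 TPM in wild-type libraries, at 8.20, 7.21 and 7.50 TPM in heterozygous libraries and at 9.26, 8.27 and 10.44 TPM in homozygous libraries. Its homozygous values exceeded all others, by a log2 of 0.52 against wild type (SE 0.16, 95% interval 0.17 to 0.87, limma adjusted p = 0.120) and 0.25 against heterozygous hearts (limma adjusted p = 0.776). The first difference was 0.30 after median-ratio scaling and 0.31 without the 3 libraries with markers of other organs (limma adjusted p = 0.332), and 0.08 with both changes together. Without wild-type replicate 3 it was 0.63 and was called (limma adjusted p = 0.0326), among 2170 genes in all.

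Sirt3 was at 49.31, 46.41 and 52.56 TPM in wild-type libraries, at 53.37, 50.18 and 54.91 TPM in heterozygous libraries and at 52.24, 45.07 and 43.33 TPM in homozygous libraries. The groups overlapped, with a log2 difference of -0.08 between homozygous and wild-type hearts (95% interval -0.32 to 0.17, limma adjusted p = 0.657). About 12.1% of the 31-base words of Sirt3 also occur in transcripts of other genes when strand is ignored, with the overlapping gene Ric8a sharing more than any other gene, and 0.572% do so on the same strand. CD38 cleaves NAD on the surface of immune and other cells. Cd38 was at 3.89, 4.55 and 6.22 TPM in wild-type libraries, at 6.34, 6.17 and 6.10 TPM in heterozygous libraries and at 6.39, 9.71 and 5.47 TPM in homozygous libraries. Homozygous replicate 2 was the highest, while replicate 3, the library with thymocyte markers, was the lowest of the homozygous group, and the difference from wild type was a log2 of 0.46 (SE 0.21, 95% interval -0.004 to 0.93, limma adjusted p = 0.202). It was 0.25 without homozygous replicate 2, 0.25 after median-ratio scaling and 0.16 after quantile normalization.

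When homozygous were set against wild-type hearts, 0 of the 9 genes other than Nmrk2 passed the limma threshold, where 46 of 13682 genes tested (0.336%) did, 0.19% higher and 0.146% lower. At an unadjusted limma p under 0.05 there were 3, namely Nmrk1, Nadk and Sirt1, against 25% of all genes. Homozygous values lay wholly above wild-type values for 4 of the 9, Nmrk1, Nmnat3, Nadk and Sirt1, against 22.3% of all genes, and wholly below for 0, against 2.38%, so that 24.7% of all genes had no overlap in either direction. The median log2 difference of the 9 was 0.26 beside 0.23 for all genes, of which 81.7% lay above 0. Median-ratio scaling lowered the median of all genes to 0.007 and that of the 9 to 0.05. With array weights, which gave wild-type replicate 3 and homozygous replicate 3 the lowest weights, 5 of the 9 were called (Nmrk1, Nmnat3, Nadk, Sirt1 and Cd38), among 5068 genes in all, and without wild-type replicate 3 the calls were Nmrk1, Nadk and Sirt1, among 2170.

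Between homozygous and heterozygous hearts, 0 of the 9 passed the limma threshold, as against 6 genes in all (0.0439%; 0.00731% higher and 0.0365% lower), and 0 reached an unadjusted p under 0.05, as against 7.15% of all genes. Nadk and Sirt1 were wholly higher in homozygous hearts, where 15.9% of all genes had no overlap, 12% being higher and 3.85% lower. Between heterozygous and wild-type hearts, 0 of the 10 passed, as against 2 genes in all (0.0146%), and 1, Nmrk1, had an unadjusted p under 0.05 and no overlap, where 6.87% of all genes reached that p and 13.8% had no overlap, with 12.8% wholly higher and 1.03% wholly lower in heterozygous hearts. The 3 heterozygous libraries all had Xist, so neither comparison with heterozygous hearts was balanced for sex. With Xist as a covariate, the Nmrk1 difference between heterozygous and wild-type hearts was 0.82 (limma adjusted p = 0.657) and that of Nmrk2 was -0.05. Between homozygous and heterozygous hearts this covariate took Nadk from 0.25 to 0.15 and Sirt1 from 0.25 to 0.12. The median of the 9 went from 0.13 to -0.03, and that of all genes from 0.08 to 0.04.

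**Figure D3:**
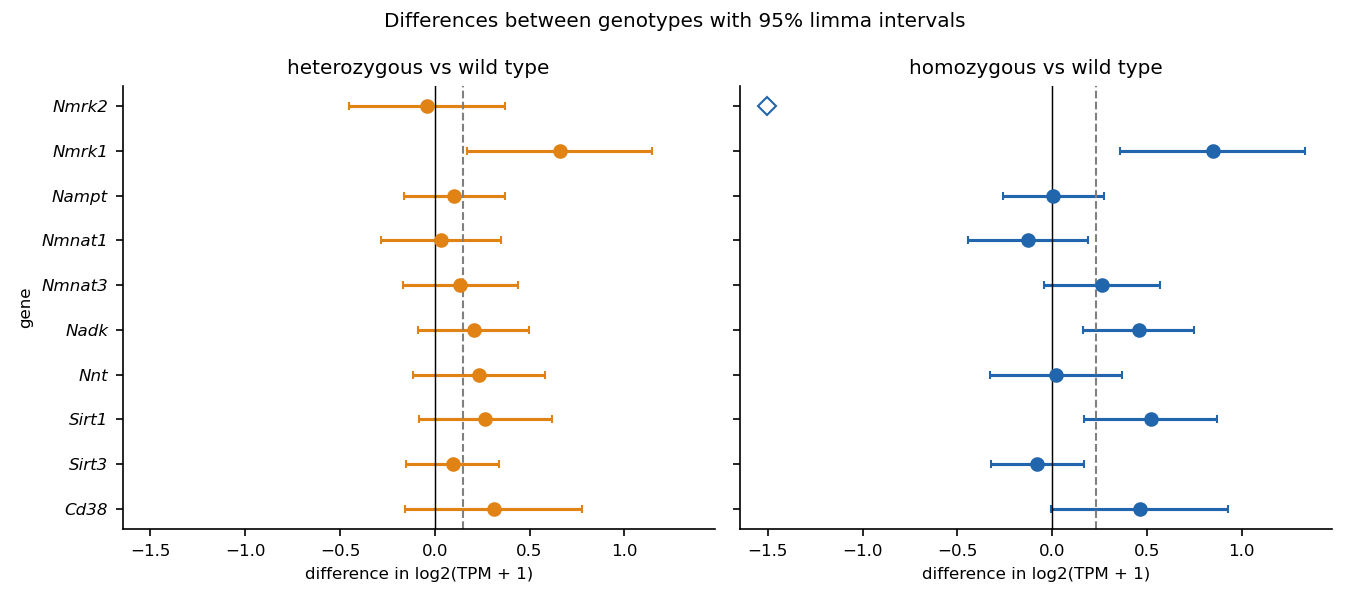
Difference in log2(TPM + 1) of the 10 genes between heterozygous and wild-type (left, orange) and homozygous and wild-type hearts (right, blue); bars are 95% limma intervals, the dashed line is the median of all 13682 genes (0.15 left, 0.23 right), and the open diamond is Nmrk2, which has no interval because it was chosen on that difference. Nmrk1 (0.66 and 0.85) has the highest difference in both panels, and the homozygous Nmrk2 difference (-1.50) lies alone on the left.

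In order of level, wild-type hearts had Nnt (160 TPM), Sirt3 (49.4 TPM), Nadk (21.5 TPM), Nmrk2 (14.75 TPM) and Nampt (13.3 TPM), then Nmnat1 (9.97 TPM), Sirt1 (6.25 TPM), Nmnat3 (5.44 TPM), Cd38 (4.89 TPM) and Nmrk1 (2.19 TPM). The libraries of Nmrk2 and Nampt overlapped, as did those of Sirt1 with Nmnat3 and of Nmnat3 with Cd38. The other neighbours in this order did not overlap. In homozygous hearts Nmrk2 stood last instead of in the fourth place, and its libraries overlapped with those of Nmrk1, and the order of Nnt, Sirt3, Nadk and Nampt above them was kept.

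Of 46 further genes of NAD metabolism, all in the table, 35 passed the filter, and 0 of these were called in any of the 3 limma comparisons. Between homozygous and wild-type hearts 9 had an unadjusted p under 0.05 (against 25% of all genes) and 7 were wholly higher (20%, against 22.3% of all genes), with a median log2 difference of 0.20. Between homozygous and heterozygous hearts 5 had an unadjusted p under 0.05 (against 7.15% of all genes) and the median was 0.06. Between heterozygous and wild-type hearts 5 did (against 6.87%) and the median was 0.15, where the medians of all genes were 0.08 and 0.15. In homozygous against wild-type hearts 81.7% of all genes lay above 0, and by role the genes above 0 were 9 of 12 PARPs and tankyrases (median 0.17), 5 of 5 NADP enzymes (0.23), 4 of 5 sirtuins (0.24), 4 of 5 salvage, transport and repair genes (0.17), 4 of 4 methylating, oxidising and hydrolysing enzymes (0.27), 1 of 2 Preiss-Handler genes and 2 of 2 de novo genes. The de novo route from tryptophan was mostly unmeasured, since 7 of its 9 genes fell below the filter. Among them Haao reached 2.17 TPM in heterozygous replicate 1, the library with liver markers, and at most 0.36 TPM elsewhere.

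Slc25a51, the carrier that brings NAD into mitochondria, had the smallest adjusted p of these genes. It was at 27.83, 28.40 and 33.57 TPM in wild-type libraries, at 40.02, 38.48 and 34.31 TPM in heterozygous libraries and at 55.69, 48.16 and 42.39 TPM in homozygous libraries, so that the 3 genotypes did not overlap. The log2 difference between homozygous and wild-type hearts was 0.68 (SE 0.13, limma adjusted p = 0.0697), which misses the threshold, and it was 0.44 after median-ratio scaling and 0.73 without the 3 libraries with markers of other organs. It was called without wild-type replicate 3 (0.76, limma adjusted p = 0.0209), among 2170 of 13682 genes in all. The same held without homozygous replicate 3 (0.78, limma adjusted p = 0.0347), among 247 genes.

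Qprt, the enzyme by which the de novo route joins the main path, was at 0.96, 0.52 and 0.62 TPM in wild-type libraries, at 3.59, 0.89 and 1.69 TPM in heterozygous libraries and at 2.94, 2.22 and 1.72 TPM in homozygous libraries (log2 0.95, limma adjusted p = 0.135). Its wild-type mean of 0.70 TPM was under the filter of 1 TPM. Qprt passed the filter through its heterozygous (2.06 TPM) and homozygous (2.29 TPM) means. At this low level the pseudocount sets the value, which was 1.59 with a pseudocount of 0.1 and 0.35 with 5. Its highest value belonged to heterozygous replicate 1, with the liver markers. Nnmt, which methylates nicotinamide and so removes it from salvage, was at 4.03, 2.75 and 3.72 TPM in wild-type libraries, at 2.97, 3.33 and 5.10 TPM in heterozygous libraries and at 5.65, 6.77 and 4.34 TPM in homozygous libraries (log2 0.54, limma adjusted p = 0.168, and 0.34 after median-ratio scaling). Parp16, an ADP-ribosyltransferase of the endoplasmic reticulum, was at 1.7, 1.34 and 3.02 TPM, 2.67, 1.98 and 2.67 TPM, and 3.45, 3.39 and 3.27 TPM in the same order of genotypes (log2 0.57, limma adjusted p = 0.163). Parp16 was called without wild-type replicate 3 (0.80, limma adjusted p = 0.0317), among 2170 genes in all. Its difference was 0.40 after median-ratio scaling and 0.31 after quantile normalization. With a pseudocount of 0.1 it was 0.79 and with 5 it was 0.26, and it was not called in any of these settings. Like Slc25a51, Carkd and Nudt13, these genes were named for a large difference without overlap between homozygous and wild-type hearts. That every homozygous value was above every wild-type value is therefore part of the choice and not a result.

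Carkd, the older symbol of the NAD(P)HX dehydratase Naxd, which repairs damaged NADH, was at 27.99 to 33.86 TPM in wild-type libraries and at 35.59 to 44.42 TPM in homozygous libraries (log2 0.34, limma adjusted p = 0.160, and 0.097 after median-ratio scaling). Nudt13, a mitochondrial hydrolase of NADH, was at 4.0 to 5.10 TPM and 5.47 to 7.36 TPM (log2 0.43, limma adjusted p = 0.144, and 0.22 after median-ratio scaling). The remaining gene of the 7 without overlap was Sirt2, the mainly cytosolic sirtuin, at 34.21 to 42.21 TPM in wild-type libraries and at 42.85 to 50.67 TPM in homozygous libraries (log2 0.32, limma adjusted p = 0.145).

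**Figure D4:**
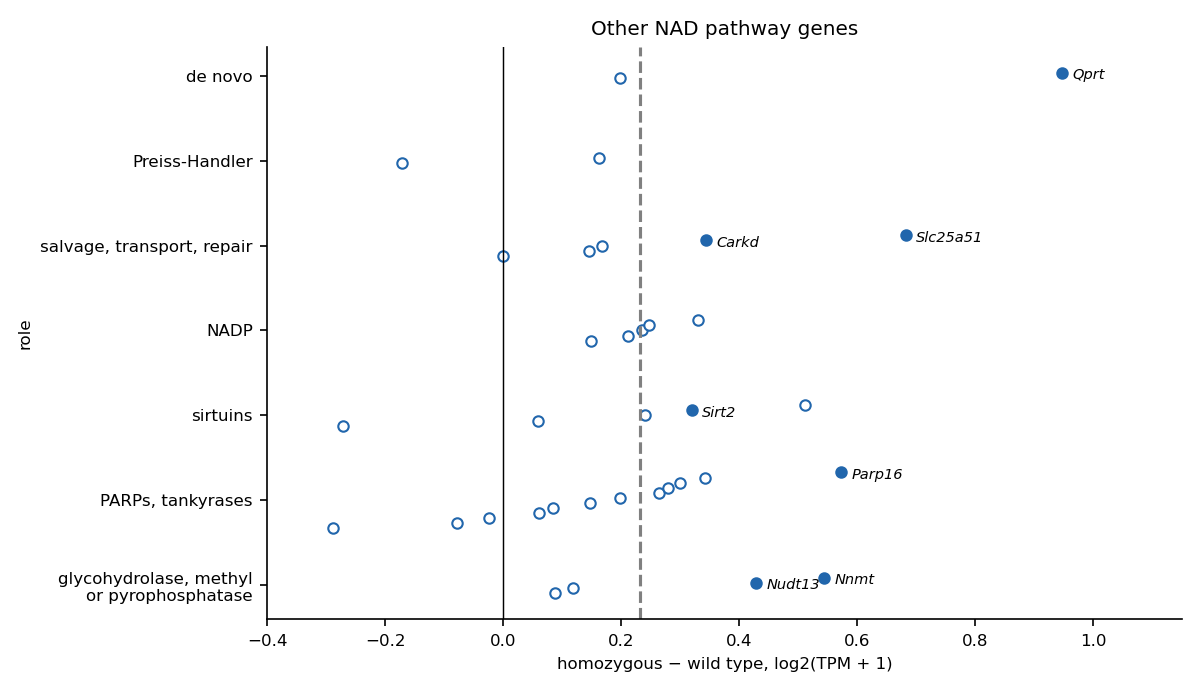
Difference in log2(TPM + 1) between homozygous and wild-type hearts for the 35 further NAD genes that passed the filter, by role; filled points have no overlap between the groups and are named, open points overlap, and the dashed line is the median of all 13682 genes (0.23). Qprt (0.95), which passed the filter through the mutant libraries, and Slc25a51 (0.68) lie farthest to the right at the pseudocount of 1 used here.

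The genes whose pattern over the 9 libraries was most like that of Nmrk2 were sought among 9951 genes averaging 5 TPM or more, by the mean absolute difference of log2 values after subtracting each gene's mean. They were Lyrm9 (0.208), Tstd3 (0.245), Casq1 (0.291), Def8 (0.291) and Aif1l (0.298), where the median of all genes was 0.733 and Nampt ranked 1268. These genes were picked for their pattern, so only levels are given. Casq1, the calcium-binding protein of the sarcoplasmic reticulum in fast skeletal muscle, was at 61.48, 68.07 and 84.18 TPM in wild-type libraries, at 82.76, 53.41 and 62.09 TPM in heterozygous libraries and at 37.85, 20.63 and 25.34 TPM in homozygous libraries. Lyrm9 was at 26.32, 22.04 and 26.30 TPM, 17.03, 24.55 and 31.91 TPM, and 9.13, 5.08 and 14.89 TPM in the same order of genotypes, and like Nmrk2 was lowest among heterozygous libraries in replicate 1. Tstd3 was at 12.00 to 15.26 TPM in wild-type libraries, at 9.71 to 11.85 TPM in heterozygous libraries and at 3.58 to 5.12 TPM in homozygous libraries. For Def8 the ranges were 18.70 to 21.79 TPM, 19.73 to 22.08 TPM and 6.37 to 11.01 TPM, and for Aif1l they were 17.84 to 21.77 TPM, 14.76 to 20.33 TPM and 5.24 to 12.06 TPM. The libraries are the same for all of these genes, so the patterns share whatever differed between those hearts.

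The genes around Nmrk2 had differences nearer to the median gene. Of 13 genes of the table within 100 kb, 10 passed the filter and 0 were called in homozygous against wild-type hearts, where 9 had a log2 difference above 0, against 0.336% of all genes called and 81.7% above 0. These differences ran from -0.18 to 0.51 with a median of 0.24, beside 0.23 for all genes, and the smallest limma adjusted p was 0.151. Zfr2, the nearest gene tested upstream, was at 7.26, 8.88 and 10.27 TPM in wild-type libraries and at 10.53, 8.75 and 10.41 TPM in homozygous libraries (log2 0.16, limma adjusted p = 0.580). Downstream, the nearest gene tested was the antisense gene Atcayos given above, followed by the kinase gene Dapk3, with 16.44, 15.49 and 17.51 TPM in wild-type libraries and at 17.23, 20.90 and 18.96 TPM in homozygous libraries (log2 0.19, limma adjusted p = 0.300). The only neighbour wholly lower in homozygous hearts was Mrpl54, a mitochondrial ribosomal protein gene, at 130.27 to 142.3 TPM in wild-type libraries and at 104.02 to 128.98 TPM in homozygous libraries (log2 -0.18, limma adjusted p = 0.298), where 2.38% of all genes were wholly lower. The only one wholly higher was Apba3, at 17.59 to 21.59 TPM in wild-type libraries and at 22.23 to 27.27 TPM in homozygous libraries (log2 0.34), where 22.3% of all genes were.

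**Figure D5:**
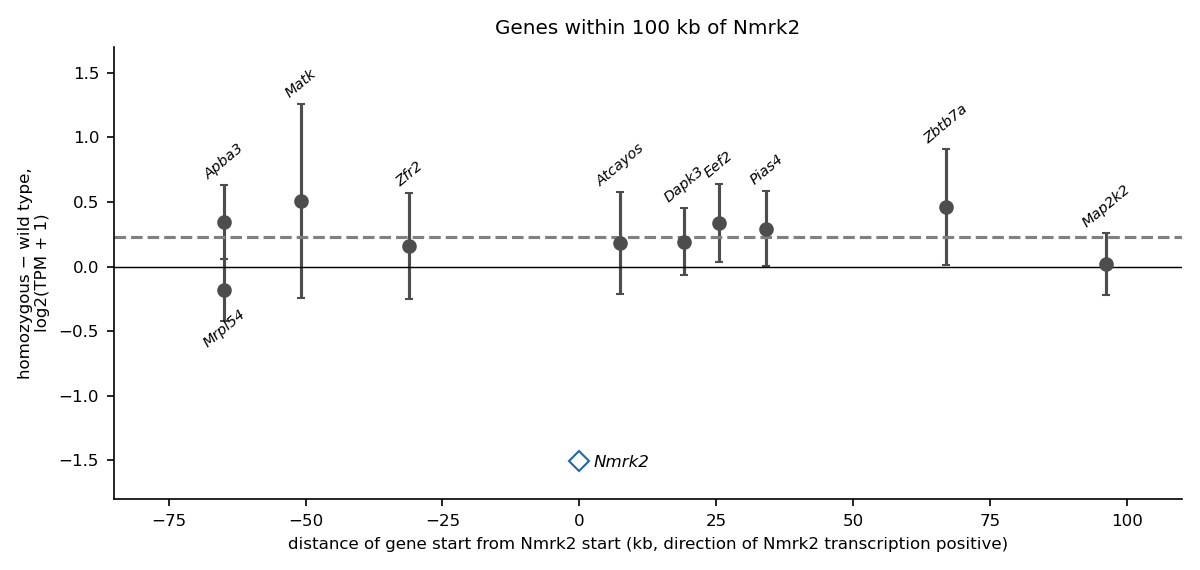
Difference in log2(TPM + 1) between homozygous and wild-type hearts for the 10 tested genes within 100 kb of Nmrk2, against the distance of their start from that of Nmrk2 in kb, with 95% limma intervals; the dashed line is the median of all genes (0.23) and the open diamond is Nmrk2, without an interval. The neighbours lie between -0.18 and 0.51 (Matk, close to the filter and highest in homozygous replicate 3), and Nmrk2 at -1.50.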

How the data were processed

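Total RNA of 9 hearts was purified by mRNA capture and sequenced by the authors, who, per the labels and the study's methods, used Trim Galore, STAR and RSEM with the mm10 genome. The deposited table holds TPM per gene symbol and library. The gene annotation and whether strand was used in counting are not given in the sources used here. TPM keeps no depth. The study's own tests used DESeq2 on counts, which were not used here.

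Of 24597 rows, 26 symbols turned into dates were left out. The 13682 genes averaging 1 TPM or more were fitted as log2(TPM + 1) with limma (v3.58.1, R v4.3.3; lmFit, contrasts.fit, eBayes with trend) over all 9 libraries without covariates. Tests were two-sided with Benjamini-Hochberg adjustment over all genes of a comparison, and genes under 0.05 were called. Wholly higher or lower means that no library of one group overlapped the other.

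The members, the gene lists and the alternatives were chosen with earlier results of these data known. The further NAD genes named are the 6 with the largest change among those without overlap, and Sirt2, Haao, Mrpl54 and Matk were named after their values were seen. Coordinates came from GENCODE M21 and promoters from RefSeq. The fit was tested on simulated data. Other pseudocounts, filters, scalings, array weights (gene by gene), a replicate block, Xist as a covariate and leaving out libraries were tried. Leaving out the 3 libraries with markers of other organs was chosen after seeing the data.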

Additional observations from a re-analysis of the deposited data

How the results depend on the processing

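The number of NAD genes called depended on which libraries carried weight. In homozygous against wild-type hearts it was 0 for the listed genes and 0 for the further ones in 19 of 22 alternatives. Among these, the filter at 5 TPM left out Nmrk1, so that only 8 listed genes were tested there. Of the further genes it left out Qprt, Parp16, Nnmt, Naprt, Parp3, Parp14, Nudt12 and Aox1. The exceptions were array weights, with 5 and 13, leaving out wild-type replicate 3, with 3 and 4 (Parp16, Parp4, Sirt2 and Slc25a51), and leaving out homozygous replicate 3, with 0 and 1. In these settings 5068, 2170 and 247 of all 13682 genes were called. In the other comparisons both counts stayed at 0 in all 22 alternatives. TPM gives no read number, so what depth limits could not be assessed.

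Genes called in homozygous against wild-type hearts, 46 (26 higher, 20 lower), became 22 without a filter on low values, 240 (39 higher, 201 lower) after median-ratio scaling, 71 (12 higher, 59 lower) after quantile normalization, 5068 with array weights (4811 higher, 257 lower), 11 with only the 2 groups compared in the fit, 17 with the replicate block, 11 without the 3 libraries with markers of other organs, 16 with that and median-ratio scaling, and 13 to 2170 when 1 library was left out, the highest without wild-type replicate 3 (2170, of which 2030 higher and 140 lower) and without homozygous replicate 3 (247). In homozygous against heterozygous hearts, 6 (1 higher, 5 lower) became 2 with a pseudocount of 5, 2 without a filter, 13 (2 higher, 11 lower) after median-ratio scaling, 11 (2 higher, 9 lower) after quantile normalization, 43 with array weights, 0 with only 2 groups, 1 with the replicate block, 0 with Xist as a covariate and 1 to 6 when 1 library was left out. In heterozygous against wild-type hearts, 2 (both lower) became 1 with a pseudocount of 0.1, 1 with a filter at 5 TPM, 5 (1 higher, 4 lower) after median-ratio scaling, 4 (1 higher, 3 lower) after quantile normalization, 4 with array weights, 0 with only 2 groups, 1 with the replicate block, 1 with Xist as a covariate, 5 without the 3 libraries, 0 with that and median-ratio scaling, and 1 to 6 when 1 library was left out. The cause was not tested.

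Signs turned only for differences that were not called. In homozygous against wild-type hearts, median-ratio scaling gave Nampt -0.23 and Nnt -0.23, quantile normalization gave Nampt -0.27, Nmnat3 -0.041 and Nnt -0.059, array weights gave Sirt3 0.039, and median-ratio scaling without the 3 libraries gave Nampt -0.21, Nnt -0.18 and Carkd -0.061. When 1 library was left out, Nampt ran from -0.051 to 0.070 and Nnt from -0.088 to 0.18. In homozygous against heterozygous hearts, Cd38 was -0.032 with Xist as a covariate and ran from -0.059 to 0.30 when 1 library was left out. In heterozygous against wild-type hearts, median-ratio scaling gave Nampt -0.053, Nmnat1 -0.12, Nmnat3 -0.0070 and Sirt3 -0.069, quantile normalization gave Nampt -0.066, Nmnat1 -0.15, Nmnat3 -0.055 and Sirt3 -0.020, and array weights gave Nmnat1 -0.018. Without the 3 libraries, Nmrk2 was 0.14 and Nmnat1 -0.022, and with median-ratio scaling as well Nmrk2 was 0.040, Nampt -0.042, Nmnat1 -0.12, Nmnat3 -0.018, Nadk -0.00070, Sirt1 -0.0074 and Sirt3 -0.020. When 1 library was left out, Nmrk2 ran from -0.14 to 0.16 and Nmnat1 from -0.082 to 0.093. The cause was not tested.

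Whether replicate numbers pair the libraries is not stated. The correlations of same-numbered deviations ran from -0.03 to 0.36, and only some were above 0.1. The highest joined wild-type and heterozygous replicates 1 (0.36) and replicates 3 (0.30). Differently numbered pairs of these genotypes ran from -0.31 to 0.12. Wild-type and heterozygous replicates 1 were the libraries with lung markers, at 2616 and 1105 TPM. Neither the part of these markers nor a shared litter or batch was tested. With the replicate block as a factor, which cannot move a difference of group means here, the limma adjusted p of Nmrk1 (0.85) in homozygous against wild-type hearts was 0.133, and no NAD gene was called.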
